A study of Ictidomys tridecemlineatus with 5 samples.

Results

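Carbonic anhydrases and the water and ion carriers that work beside them were followed in ocular RNA of the thirteen-lined ground squirrel, Ictidomys tridecemlineatus, a day-active rodent. The 10 proteins were chosen by name, as the transcripts whose best Swiss-Prot hit was CAH2, CAH3, CAH4, CAH12, CAH14, AQP1, S4A4, S4A11, S12A2 or B3A2, whatever the species of the entry. All 10 names were present in both tissue tables, among 13949 protein names found in both. They are carried by 24 transcripts in eye and 27 in retina, and the squirrel genes of all 10 were found by symbol in the RefSeq gene table of assembly mIctTri1.hap1.

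The study sequenced 2 libraries of eye and 3 of retina, all from wild-type animals with no treatment named, and by the labels RNA of 4 animals went into a library preparation. The tables hold 1 value per assembled transcript and tissue, so no difference between eye and retina has a replicate check, and none is given a p-value. Values are RPKM, reads per 1000 bases of transcript and 1000000 reads, and their scaling implies a total of 264219334 reads in eye and 355988270 in retina. A protein's level here is the RPKM of its highest transcript. A difference is log2(eye + 1) minus log2(retina + 1), so that low proteins appear closer together than they are. Calls of 2-fold are made on this scale, so a low protein can miss the mark though its RPKM differ by 2-fold. Intervals are 95% Poisson counting intervals and cover counting error only. They take each recovered read as belonging to its transcript and do not cover reads counted on several transcripts.

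The tissue labels were set against defining markers. The lens list, of crystallins and the lens fibre channel MIP, summed to 7460 RPKM in eye and 25.9 RPKM in retina. Names of rods and cones summed to 2385 RPKM in eye and 4777 RPKM in retina, so the eye libraries also held RNA of photoreceptors. The highest of these names, ARRC and RECO, came from transcripts of 139 and 174 bases in eye and 204 and 356 in retina. With transcripts of 500 bases or more, 2 of the 4 names compared were higher and 2 lower in eye, with a median difference of -0.20. In tissue RNA of this kind, fewer cells of a type and less RNA per cell cannot be told apart.

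Carbonic anhydrases are zinc enzymes that interconvert carbon dioxide and bicarbonate. In the ciliary body, bicarbonate made in this way feeds the transport of sodium, chloride and water across a double epithelium, which forms the aqueous humour, and inhibitors of the enzymes lower eye pressure in glaucoma. Bicarbonate transport also drives fluid out of the cornea across its endothelium, and in the retina the enzymes of Mueller glia and pigment epithelium handle the carbon dioxide of photoreceptors.

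Of the 10 proteins, 9 were higher in eye than in retina and 7 were at least 2-fold higher. Among all 13383 proteins that reached 1 RPKM in a tissue, 49.7% were higher in eye and 11.8% by at least 2-fold. The members were chosen with earlier results of these data known, so these shares are a frame and not a test. No member was at least 2-fold lower in eye, against 3.6% of all proteins. Only 1 of the 4 rod and cone names compared was at least 2-fold lower in eye, so this count says little about retinal proteins. The median difference was 1.35 over the 10 members and -0.0035 over all proteins. Scaling both tissues to an equal total moved the median of all proteins to -0.25. Under that scaling 5 members stood at least 2-fold higher in eye and CAH2 reached 2-fold lower, against 8.96% and 6.74% of all proteins.

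**Figure D1:**
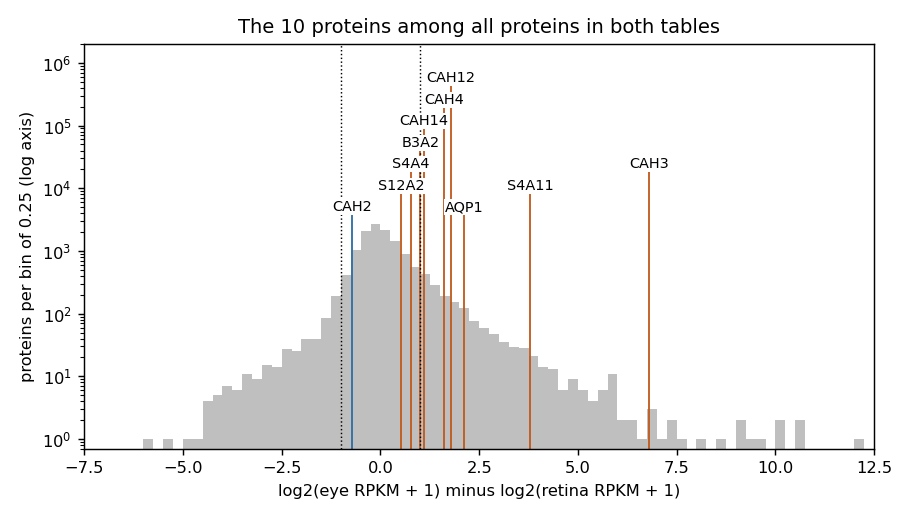
The histogram gives the number of proteins (log axis) by difference between eye and retina, as log2(RPKM + 1), with a coloured line for each of the 10 proteins and dotted lines at a 2-fold difference. CAH3, at 6.79, and S4A11, at 3.79, lie in the right tail, and CAH2, at -0.73, is the only member left of 0.

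The transcripts behind a protein were looked at one by one, because the value of a protein rests on the transcript chosen. In 9 of the 10 members every eye transcript stood above every retina transcript, which was so for 32.2% of all proteins, while the opposite held for 22.3% of them and for no member. CAH2 was the exception, since its highest eye transcript, at 130 RPKM, lay just above its lowest retina transcript, at 129 RPKM. Transcripts of a protein are not replicates, as they can share reads. Of the 51 transcripts 1 was under 200 bases, and 1 had an E-value above 1e-10. The fewest reads behind any of them was 56.

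**Figure D2:**
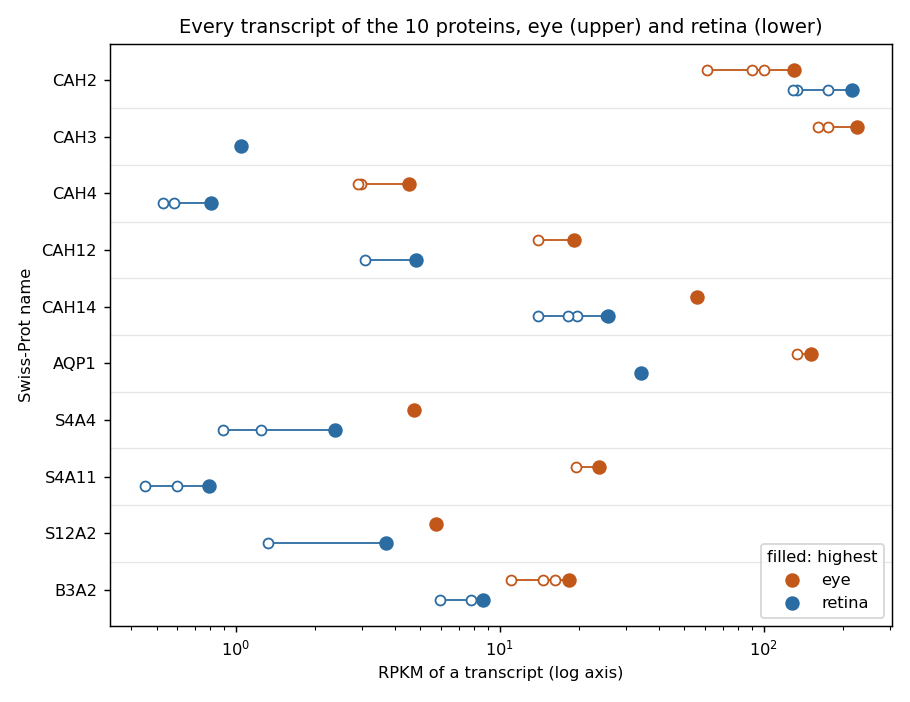
Each point is a transcript of the named protein, by its RPKM on a log axis, with eye (orange) above retina (blue) in each row and the highest transcript filled. Eye points lie right of retina points in every row but that of CAH2, and CAH3 and S4A11 show the widest gaps.

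The cytosolic enzymes differed from each other in direction. CAH2, the fast and widespread cytosolic carbonic anhydrase that glaucoma drugs act on, was the most abundant member in retina, where its highest transcript stood at 216 RPKM (interval 215 to 217), and it was the third most abundant in eye at 130 RPKM (129 to 131). Its difference of -0.73 (-0.74 to -0.71) made it the only member lower in eye. The other eye transcripts of CAH2 stood at 99.8, 90.4 and 60.9 RPKM, and the other retina transcripts at 175, 133 and 129 RPKM. None of the 4 eye transcripts aligned over more than 145 residues of the human entry, whereas the highest retina transcript aligned over 249. The longest alignment of equal length in the tables covered 135 residues at 91% similarity in both, and those transcripts stood at 90.4 RPKM in eye and 129 RPKM in retina, a difference of -0.50. CAH2 was thus lower in eye in each of these comparisons, by less than 2-fold.

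CAH3 is a cytosolic isozyme of low catalytic activity, known for its abundance in skeletal muscle and fat. It was the most abundant member in eye and among the least in retina. Its highest transcript stood at 225 RPKM in eye (224 to 226) and at 1.04 RPKM in retina (0.961 to 1.13), a ratio of 216 and a difference of 6.79 (6.73 to 6.85). These transcripts, of 1802 bases in eye and 1681 in retina, aligned over the same 260 residues of the mouse entry at 99% similarity. A pair of shorter eye transcripts of 500 bases each stood at 174 and 160 RPKM. In eye CAH3 exceeded 97.7% of proteins, and in retina 6.49%.

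Part of the skeletal muscle markers moved with CAH3. Of 8 names, 7 were compared, of which 4 passed 2-fold on the eye side and 2 on the retina side, with the whole list summing to 1172 RPKM in eye and 660 RPKM in retina. The fast myosin light chain MLRS stood at 366 RPKM in eye and 1.37 RPKM in retina, and troponin TNNI2 at 220 RPKM in eye and 1.01 RPKM in retina. Troponin TNNT3 was listed for eye alone, at 151 RPKM. Creatine kinase KCRM went the other way, at 210 RPKM in eye and 584 RPKM in retina, where the value came from a transcript of 115 bases, and it was higher in eye with transcripts of 200 bases or more. Alpha-actinin ACTN3 was also lower in eye, at 26.5 RPKM in eye and 67.7 RPKM in retina, and stayed lower under all 14 alternatives that gave a value. The myosin-binding protein MYPC2 was at 2.92 RPKM in eye and 4.43 RPKM in retina. The part of muscle RNA in the difference of CAH3 was not tested.

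The 3 membrane-bound isozymes were all at least 2-fold higher in eye. CAH14, a transmembrane enzyme with its active site outside the cell and known from Mueller glia and pigment epithelium, was the most abundant of them in both tissues. It stood at 55.9 RPKM in eye (55.2 to 56.6) and 25.6 RPKM in retina, a difference of 1.10 (1.07 to 1.13). The second eye transcript was nearly level with the first, at 55.6 RPKM, while the 5 retina transcripts ran from 14.0 to 25.6 RPKM. With RPKM summed over transcripts the difference was 0.12, from 2 transcripts in eye and 5 in retina.

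CAH12, another transmembrane enzyme, found in ciliary epithelium, stood at 19.1 RPKM in eye (18.7 to 19.4) and 4.79 RPKM in retina (4.68 to 4.91), a difference of 1.79. The eye value came from a transcript of 2787 bases of which only 52 residues aligned, at 71% similarity. The other eye transcript aligned over 354 residues, as did the highest retina transcript. It stood at 13.9 RPKM, which gives a difference of 1.37 for the matched pair.

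CAH4, held to the outer membrane by a lipid anchor and known from the capillaries behind the retina, was the lowest member in eye. It stood at 4.51 RPKM in eye (4.27 to 4.76) and 0.805 RPKM in retina (0.687 to 0.939), a difference of 1.61 (1.49 to 1.73), the widest interval of the 10. The retina value rested on 164 reads of a 572-base transcript that aligned over 165 residues, against 312 in eye. Markers of vascular endothelium moved with it, since all 5 stood more than 2-fold higher in eye, and their sum was 74.7 RPKM in eye and 6.43 RPKM in retina. All 5 stayed higher but 3 passed 2-fold with summed transcripts and 1 with a pseudocount of 5. PLVAP, a protein of fenestrated capillaries, stood at 50.9 RPKM in eye, which is most of the eye sum, and 0.336 RPKM in retina. The retina value came from a transcript of 184 bases. With transcripts of 200 bases or more PLVAP had no value, and the 4 names compared were all at least 2-fold higher in eye. The part of vessels in the difference was not tested.

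The mix of isozymes differed between the tissues. Over the 12 carbonic anhydrase and related names in eye, the highest transcripts summed to 581 RPKM, and over the 11 names in retina to 407 RPKM. CAH3 made up 38.7% of this sum in eye and 0.256% in retina. CAH2 made up 22.4% in eye and 53.1% in retina. Without CAH3 the sums were 356 RPKM in eye and 406 RPKM in retina. The membrane-bound forms CAH4, CAH9, CAH12 and CAH14 together held 15.4% in eye and 7.87% in retina. The related proteins CAH8, CAH10 and CAH11, which are counted in these sums but lack catalytic activity, held 12.9% in eye and 25.9% in retina.

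**Figure D3:**
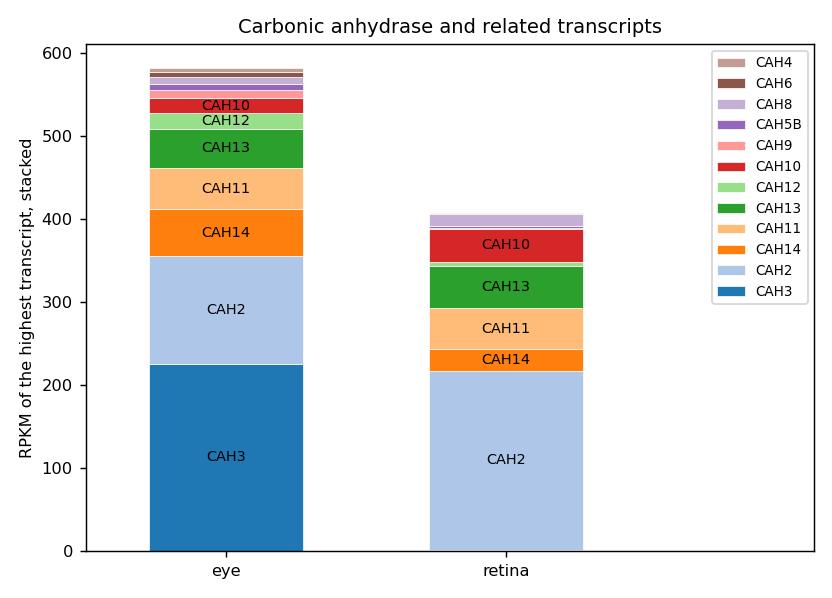
The bars stack, in RPKM, the highest transcripts of every carbonic anhydrase or related name, eye left and retina right, in the order of their eye levels. CAH3 is the broad lowest block of the eye bar and cannot be seen in the retina bar, where CAH2 is the broadest block.

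The 7 names beyond the members did not show a common direction. Of the 6 in both tables, 3 were higher and 3 lower in eye, 2 at least 2-fold higher and 1 at least 2-fold lower, with a median of -0.04. CAH9, a transmembrane enzyme induced by low oxygen, stood at 9.93 RPKM in eye and 0.826 RPKM in retina, and the mitochondrial CAH5B at 7.81 RPKM in eye and 2.01 RPKM in retina. CAH13, another cytosolic isozyme, was at 47.1 RPKM in eye and 50.3 RPKM in retina, but higher in eye by 1.38 with transcripts summed, 3 in eye and 1 in retina. The related proteins CAH8, CAH10 and CAH11 lack catalytic activity and are known from neurons. CAH10 was at 17.3 RPKM in eye and 40.5 RPKM in retina, a difference of -1.18, and CAH8 at 7.51 RPKM in eye and 14.7 RPKM in retina. CAH11 stood at 50.1 RPKM in eye and 49.9 RPKM in retina, and its sign changed under 4 of 15 alternatives. CAH6, the secreted form of saliva and tears, was listed for eye alone, at 6.77 RPKM. CAH1, CAH5A, CAH7 and CAH15 were found in neither table. In the RefSeq table Ca2, Ca3, Ca1 and Ca13 follow each other along a chromosome as neighbouring protein-coding genes. Whether reads were shared between these related transcripts was not tested.

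All 5 transport proteins were higher in eye, 3 of them by at least 2-fold. Their median difference was 1.01, against 1.61 for the 5 carbonic anhydrases. AQP1, the water channel of the ciliary epithelium, the outflow tissue and the corneal endothelium, was the second most abundant member in both tissues. Its eye transcripts stood at 150 RPKM (150 to 151) and 133 RPKM, and the single retina transcript at 34.1 RPKM (33.8 to 34.4). The transcripts of 3995 bases in eye and 3977 in retina both aligned over 269 residues of the orangutan entry at 98% similarity, and their difference was 2.11 (2.09 to 2.12). The order of AQP1 and CAH2 was opposite in the tissues, with an AQP1 to CAH2 ratio of 1.15 in eye and 0.158 in retina. Summed over transcripts CAH2 was above AQP1 in eye as well, at 381 RPKM against 284 RPKM.

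Red cells carry both AQP1 and CAH2, and red cell names were higher in eye. The 3 names found, HBA, HBB and HEM0, were all more than 2-fold higher in eye. The list summed to 8873 RPKM in eye and 257 RPKM in retina, nearly all of it hemoglobin. EPB42, GLPA and RHAG were in neither table, and neither were the red cell anion exchanger B3AT and the red cell enzyme CAH1. Names of ciliary body, iris and outflow were also higher, all 4 compared being at least 2-fold higher in eye, and summed to 4401 RPKM in eye and 272 RPKM in retina. With best-matching transcripts OPT and MGP of this list were lower in eye. Most of the sum is the prostaglandin synthase PTGDS, from a transcript of 218 bases in eye. Its difference of 4.01 fell to 0.35 with transcripts of 500 bases or more, where 3 of the 4 names were at least 2-fold higher. MYOC, the outflow protein myocilin, was listed for eye alone, at 105 RPKM. The part of either source in the difference of AQP1 was not tested.

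S4A11, a transporter of protons and ammonia in the corneal endothelium whose loss causes endothelial dystrophy in people, had the second largest difference. It stood at 23.7 RPKM in eye (23.4 to 24.1) and 0.791 RPKM in retina (0.725 to 0.860), a ratio of 30.0 and a difference of 3.79 (3.73 to 3.84). The second eye transcript was at 19.4 RPKM and the other 2 retina transcripts at 0.599 and 0.453 RPKM. It was the fifth of the 10 in eye and the lowest in retina, level with CAH4 within counting error. The highest transcripts differed in extent, with 862 aligned residues in eye and 457 in retina.

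Names of corneal endothelium and keratocytes summed to 135 RPKM in eye and 27.7 RPKM in retina. Of the 5, CO8A2 and KERA were listed for eye alone, at 33.4 and 19.1 RPKM. CO8A1, a collagen of the membrane beneath the corneal endothelium, stood at 20.0 RPKM in eye and 0.764 RPKM in retina, and LUM at 42.9 RPKM in eye and 1.13 RPKM in retina. CADH2, also expressed by neural tissue, was at 19.2 RPKM in eye and 25.8 RPKM in retina, which is most of the retina sum. The part of corneal RNA in the difference of S4A11 was not tested.

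B3A2, the anion exchanger that takes chloride into pigmented ciliary cells in return for bicarbonate, lay at the 2-fold mark. It stood at 18.3 RPKM in eye (18.1 to 18.6) and 8.60 RPKM in retina (8.45 to 8.75), a difference of 1.01 with an interval of 0.98 to 1.04. Its transcripts could be matched in 3 pairs by aligned length. The pair of 1236 residues is the one above, the pair of 1014 residues stood at 16.1 RPKM in eye and 7.74 RPKM in retina, and the pair of 734 residues at 14.5 RPKM in eye and 5.93 RPKM in retina. Their differences were 1.01, 0.97 and 1.16, so the matched transcripts differed by about the same factor.

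By the difference with a pseudocount of 1, S4A4 and S12A2 were the members nearest to equal levels, apart from CAH2. S4A4, the electrogenic cotransporter that carries sodium with bicarbonate in corneal endothelium, Mueller glia and pigment epithelium, stood at 4.73 RPKM in eye (4.62 to 4.84) and 2.37 RPKM in retina (2.31 to 2.43). Its difference was 0.77 (0.73 to 0.81). Both values came from long transcripts, with 1079 aligned residues in eye and 1111 in retina. The other 2 retina transcripts, at 1.24 and 0.893 RPKM, aligned over 39 residues each.

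S12A2, which brings sodium, potassium and chloride together into pigmented ciliary cells, stood at 5.74 RPKM in eye (5.63 to 5.85) and 3.70 RPKM in retina (3.62 to 3.79), a difference of 0.52 (0.48 to 0.55). Its long transcripts aligned over 1212 residues in eye and 1097 in retina. A second retina transcript of 468 bases stood at 1.32 RPKM. Summed over transcripts the difference was 0.16 for S12A2 and 0.06 for S4A4.

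The order of levels differed between the tissues. In eye it was CAH3, AQP1, CAH2, CAH14, S4A11, CAH12, B3A2, S12A2, S4A4 and CAH4, and the intervals of neighbours overlapped only for S4A4 and CAH4. In retina it was CAH2, AQP1, CAH14, B3A2, CAH12, S12A2, S4A4, CAH3, CAH4 and S4A11, with overlap only for CAH4 and S4A11. The highest and the lowest member lay 49.9-fold apart in eye and 273-fold apart in retina. The order depends on the transcript chosen. Summed over transcripts, B3A2, at 60.0 RPKM in eye, was above S4A11, at 43.1, and CAH12, at 33.0, and CAH4, at 10.4, was above S12A2 and S4A4. In retina the sums put CAH14, at 102 RPKM, above AQP1, at 34.1. With best-matching transcripts CAH12, at 13.9 RPKM in eye, was below B3A2.

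Other proteins of fluid and bicarbonate transport were taken as 9 lists of 68 names, of which 49 were compared. Of these 24 were higher and 25 lower in eye, with a median of -0.02, and 10 passed 2-fold upward in eye and 1 downward. The share at least 2-fold higher was 20.4%, against 11.8% of all proteins. These counts and the median leave out 6 names listed for eye alone, while no name was listed for retina alone. Over all proteins 15287 names were found in eye and 14600 in retina, with 13949 in both, so names listed for eye alone were common in general. By the highest transcript each list held proteins in both directions. Scaling to an equal total put all 4 chloride channels compared lower in eye.

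**Figure D4:**
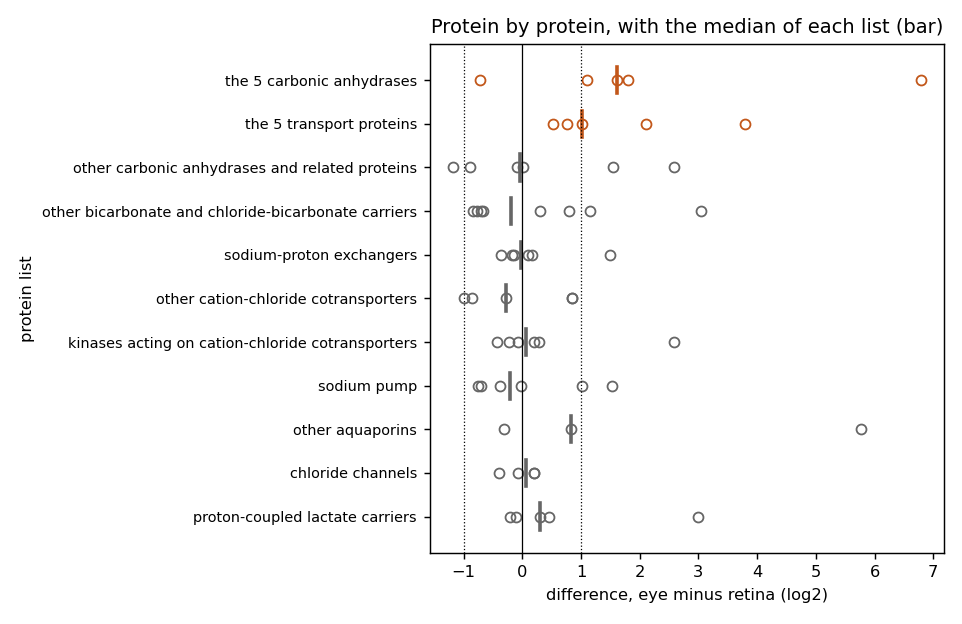
Each circle is a protein's difference between eye and retina on the log2 scale, with a bar at the list's median and dotted lines at a 2-fold difference. The medians of the members, 1.61 and 1.01, lie right of those of the 9 other lists, whose circles fall on both sides of 0 in every row. Names listed for eye alone have no circle and do not enter a median.

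Of the other bicarbonate carriers, 4 of the 8 compared were higher and 4 lower in eye, with a median of -0.19, and 2 passed 2-fold upward. S4A10, a sodium-driven exchanger of neurons, stood at 22.4 RPKM in eye and 38.9 RPKM in retina. S4A5, the second electrogenic cotransporter, was at 28.4 RPKM in eye and 15.8 RPKM in retina, but was lower in eye by 0.44 with summed transcripts. S26A6 was at 11.1 RPKM in eye and 20.8 RPKM in retina, and B3A3 at 16.98 RPKM in eye and 13.6 RPKM in retina, a difference that changed sign under 3 of 15 alternatives. The largest difference of the list was that of S26A4, an exchanger of chloride with iodide and bicarbonate, at 17.8 RPKM in eye and 1.29 RPKM in retina, or 3.04, and it stayed above 2-fold under the 14 alternatives that gave a value. S26A7, at 3.03 RPKM in eye and 0.804 RPKM in retina, differed by 1.16, but by 0.47 with a pseudocount of 5. No name of the list was at least 2-fold lower in eye by the highest transcript, whereas 2 were with summed transcripts. S26AB was in neither table, and the carrier listed as S4A9 goes by the Swiss-Prot name B3A4, looked up after values were seen, which had 2 eye transcripts, the higher at 4.30 RPKM, and none in retina.

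The sodium pump, which drives the transport of the ciliary epithelium and the dark current of photoreceptors alike, was abundant in both tissues, with 2 of 6 subunits at least 2-fold higher in eye and 4 lower. AT1A1 stood at 281 RPKM in eye and 367 RPKM in retina and AT1A3 at 141 RPKM in eye and 230 RPKM in retina. AT1B2 was at 182 RPKM in eye, from a transcript of 172 bases, and 309 RPKM in retina. AT1B1 was at 242 RPKM in eye and 246 RPKM in retina, where the transcript had 107 bases, and its difference changed sign under 4 of 14 alternatives. The 2 higher ones were AT1A2, the glial and muscle form, at 71.1 RPKM in eye and 23.9 RPKM in retina, and AT1B3, at 81.0 RPKM in eye and 39.7 RPKM in retina. AT1B3 passed 2-fold narrowly, at 1.01, and differed by 0.74 with equal totals, where 1 subunit was 2-fold higher and 1 lower in eye. With summed transcripts 1 was 2-fold higher and 4 lower. AT1A1 changed sign with length-weighted means.

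The remaining aquaporins were mostly seen in eye. Of 10 names 3 were in both tables, 4 in the eye table only and 3 in neither. AQP5, a channel of corneal epithelium, lens and tear gland, stood at 216 RPKM in eye, above AQP1, and at 2.98 RPKM in retina. AQP4, the channel of Mueller glia and astrocytes, stood at 11.4 RPKM in eye and 5.95 RPKM in retina, and AQP11 at 4.33 RPKM in eye and 5.65 RPKM in retina. AQP3, of corneal and conjunctival epithelium, at 81.3 RPKM, the lens channel MIP, at 43.4 RPKM, AQP2, at 0.772 RPKM, and AQP7, at 0.660 RPKM, had no retina transcript listed. Names of corneal epithelium were likewise higher in eye, with 2 of 5 in both tables and 3 listed for eye alone, and summed to 4456 RPKM in eye and 1.59 RPKM in retina. Their part in the levels of AQP3 and AQP5 was not tested.

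Cation and proton exchange showed single names apart from the rest. Of 6 names of sodium-proton exchange 1 was at least 2-fold higher in eye, the scaffold NHRF1, at 38.1 RPKM in eye and 12.9 RPKM in retina. The scaffold NHRF2 was at 54.8 RPKM in eye and 51.4 RPKM in retina, and the exchanger SL9A6 at 12.2 RPKM in eye and 13.8 RPKM in retina. SL9A8 was at 5.73 RPKM in eye and 6.42 RPKM in retina. SL9A1, the exchanger paired with B3A2 in ciliary epithelium, stood at 5.39 RPKM in eye and 4.71 RPKM in retina. Its sign and that of NHRF2 changed when tissues were scaled to an equal total. NHRF2 was also lower in eye with summed transcripts, by 0.65. SL9A3 was in neither table.

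Of the other cation-chloride cotransporters, none of 5 reached 2-fold by the highest transcript with the pseudocount of 1. With a pseudocount of 0.1, 1 was at least 2-fold higher and 1 at least 2-fold lower in eye. With equal totals S12A5 and S12A6 did, at -1.14 and -1.24, and summed transcripts gave 1 name higher and 2 lower in eye by 2-fold. S12A5, the chloride extruder of neurons, was the highest, at 59.6 RPKM in eye and 109 RPKM in retina, but was higher in eye under 4 of 15 alternatives, by 1.96 with the longest transcripts. S12A7 stood at 12.2 RPKM in eye and 14.98 RPKM in retina, S12A6 at 5.74 RPKM in eye and 12.4 RPKM in retina, and S12A4 at 7.59 RPKM in eye and 3.78 RPKM in retina. S12A3 was in neither table.

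Of the 6 kinases that act on these cotransporters, WNK4 stood apart, at 15.6 RPKM in eye and 1.79 RPKM in retina, a difference of 2.58. The others lay within 2-fold. STK39, which phosphorylates S12A2, was at 14.9 RPKM in eye and 15.7 RPKM in retina, WNK1 at 12.1 RPKM in eye and 9.81 RPKM in retina, and WNK2 at 22.8 RPKM in eye and 31.0 RPKM in retina. WNK1 changed sign with summed transcripts and WNK2 with the best-matching and the longest ones. WNK4 stayed more than 2-fold higher in eye under the 13 alternatives that gave a value. It had no value with best-matching transcripts, where none of the 5 kinases compared reached 2-fold. The difference of WNK4 thus depends on the transcript chosen.

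Of 4 chloride channel names in both tables, none differed by 2-fold by the highest transcript. CLCN3 stood at 31.3 RPKM in eye and 41.3 RPKM in retina, BEST1 of the pigment epithelium at 15.8 RPKM in eye and 16.6 RPKM in retina, LRC8A at 15.3 RPKM in eye and 13.1 RPKM in retina, and CLCN2 at 9.45 RPKM in eye and 8.12 RPKM in retina. CLCN2 ran from -1.25 with summed to 1.61 with best-matching transcripts, and BEST1 reached 1.42 with the longest ones and changed sign under 4 of 15 alternatives. ANO1 was listed for eye alone, at 1.14 RPKM, and CFTR was in neither.

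The lactate carriers, which move protons with lactate, had 1 of 5 names at least 2-fold different. This was MOT3, the form of pigment epithelium, at 32.2 RPKM in eye and 3.16 RPKM in retina. Markers of pigment epithelium moved with it, 4 of 5 being at least 2-fold higher, with a sum of 980 RPKM in eye and 97.6 RPKM in retina, though TTHY was lower in eye with best-matching transcripts. Their part was not tested. MOT1 was at 75.3 RPKM in eye and 81.6 RPKM in retina, MOT4 at 27.0 RPKM in eye and 19.4 RPKM in retina, and their partner basigin, BASI, at 542 RPKM in eye and 439 RPKM in retina. Basigin had 51 transcripts in eye and 59 in retina, and its difference ran from -4.69 to 4.58 with the transcript chosen.

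Glial markers gave a frame for CAH2, CAH14 and S4A4, all known from Mueller cells. Of 7 names 4 were higher and 3 lower in eye, and only vimentin, VIME, passed 2-fold. The median was 0.10, with sums of 2589 RPKM in eye and 2037 RPKM in retina. With equal totals the median was -0.18. With best-matching transcripts it was -0.78, with 6 of the 7 lower in eye and 3 at least 2-fold lower. The glutamate carrier EAA1 was at 84.2 RPKM in eye and 156 RPKM in retina and the retinoid carrier RLBP1 at 347 RPKM in eye and 323 RPKM in retina. CAH2 and EAA1 were lower in eye and CAH14 and S4A4 higher. RLBP1 changed sign under 3 of 15 alternatives, equal totals among them, and reached -1.94 with best-matching transcripts. The glial names GLNA and RGR changed sign under 4 and 3 of 15 alternatives. The part of glia in these values was not tested.

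The differences were then recomputed in other ways. CAH2 was lower in eye under all 15 alternatives, from -1.0004 to -0.50. The other 9 members were higher under every alternative that gave a value. CAH3 ran from 5.25 to 8.10, S4A11 from 2.31 to 4.74, AQP1 from 1.84 to 3.02 and CAH12 from 1.30 to 1.97, always above 2-fold. CAH4, CAH14 and B3A2 crossed the mark, from 0.71 to 2.35, from 0.12 to 1.93 and from 0.75 to 1.39. S4A4, from 0.06 to 0.97, and S12A2, from 0.16 to 0.62, never reached it.

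**Figure D5:**
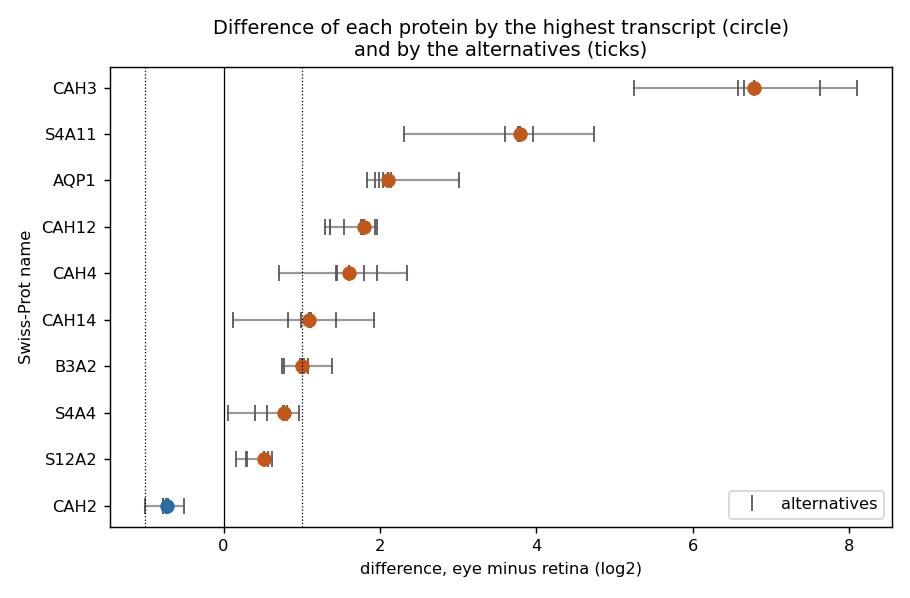
Circles give the difference between eye and retina (log2) of each protein by its highest transcript, ticks the value under each alternative way of computing it, and dotted lines a 2-fold difference. The ticks of CAH2 all lie left of 0 and those of the other 9 proteins right of it, with the widest spread for CAH3, from 5.25 to 8.10.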

How the data were processed

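RNA sequencing of eye (2 libraries) and retina (3 libraries) was deposited as 1 table of transcript values and 1 of best Swiss-Prot hits per tissue. The submitters' processing notes name Bowtie without a version. The assembler was not given in the sources used here, nor were the counting mode and how libraries were combined. The expression values deposited by the authors were read as RPKM, since value times length was a whole multiple of 1 constant for 100% of transcripts, within 0.01 reads. Reads so recovered summed to 19.2 and 10.5 times the totals behind the scaling of eye and retina, so reads may be counted on several transcripts, which was not tested. Similarity (percent of positives) and bit score of each hit are the authors' values, per the file headers. Tables were joined by protein name, and a pseudocount of 1 and a filter of 1 RPKM in either tissue were used. The 2-fold mark is descriptive. Members and lists were chosen with earlier results of these data known. Up to 4 names per list were described by highest mean level, with names in 1 table only; other list names given were chosen after their values were seen. Computation used Python 3.11.15, pandas 2.3.3, NumPy 2.4.6 and SciPy 1.17.1, and functions were tested on simulated data. The alternatives were 14 planned and 1 added after seeing the data, transcripts paired by equal aligned length. Of the marker names, 1 is not reported here.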

Additional observations from a re-analysis of the deposited data

How the results depend on the processing

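No paired analysis was possible because each tissue has 1 column of values, and for the same reason no library could be left out. The number of members at least 2-fold higher in eye was 7, and it was 4 with a pseudocount of 5, and scaling to an equal total gave 1 member 2-fold lower in eye, CAH2, at -1.0004. The cause was not tested, beyond the smaller differences that a larger pseudocount gives by construction. Over all proteins, the share at least 2-fold lower in eye was 3.6% and became 19.3% with summed transcripts, 2.05% with length-weighted means, 6.74% with equal totals, 1.98% with a pseudocount of 5 and 2.06% with paired transcripts (added after seeing the data). The share at least 2-fold higher was 11.8% and became 6.09% with a pseudocount of 5. The other 52 counts and shares recomputed stayed within 1.5 times. No member at least 2-fold apart changed direction. A filter at 10 RPKM left 7 members and pairing left 6, since CAH4, S4A4, S12A2 and, for pairing, S4A11 then had no value. At the lowest depth, CAH4 in retina, counting error was largest.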

Other observations

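The name ICA, the inhibitor of carbonic anhydrase, a relative of transferrin known from pig and mouse, was noticed after its values were seen. In eye it stood at 55.6 RPKM, from a transcript of 2276 bases that aligned over 682 residues. In retina the highest of 6 transcripts stood at 555 RPKM but had 115 bases, and the longest, of 1483 bases with 452 aligned residues, stood at 69.3 RPKM. Transferrin itself, TRFE, had its highest transcript at 442 RPKM in eye and 942 RPKM in retina. By the longest transcript the order was opposite, at 226 RPKM in eye and 207 RPKM in retina. Of its transcripts, 28 of 32 in eye and 493 of 495 in retina were under 200 bases.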
